A study of Homo sapiens with 8 samples.

Results

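Contacts within the locus control region (LCR) of the human β-globin locus are described here. They were chosen as the pairs whose 2 ends both had their midpoints in chr11:5295475-5313775 (hg19), from 4.3 to 22.6 kb upstream of the transcription start site of *HBE1*, the embryonic ε-globin gene. There were 278 such pairs among 2966 distinct pairs in the WT list and 336 among 2310 in the BCL11A KO list. The cells were HUDEP-2, an immortalized human erythroid progenitor line labelled HUDEP2, either wild-type (WT) or with a BCL11A knockout, and both carried a biotinylated, catalytically inactive Cas9 together with sgRNAs to 4 bait regions of the locus. The labels describe growth in expansion medium with SCF, EPO, dexamethasone and doxycycline, whereas the study's methods state that the cells for CAPTURE were taken after erythroid differentiation. Neither says whether the knockout line was 1 clone. In CAPTURE-3C-seq, DNA stretches that lie near each other are ligated, the baits are purified through the Cas9, and the ligation products are sequenced. The authors merged 3 biological replicates per genotype into 1 list. No value below therefore has a replicate error, every p-value comes from a two-sided Fisher's exact test and is called an exact p, intervals and tests cover counting error only, and the tests compare these 2 lists rather than the genotypes. Listed pairs need not be independent molecules. Only chromosome 11 is listed, so the BCL11A gene itself could not be checked.

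The LCR is the distal enhancer of all β-like globin genes. It is a row of short stretches of open chromatin in erythroid cells, the DNase I hypersensitive sites HS1 to HS5, numbered outward from *HBE1*. HS2, HS3 and HS4 are known for enhancer activity and for binding of GATA1, KLF1 and NF-E2, whereas HS5 is known for binding of CTCF, an architectural factor of loop borders. BCL11A represses the γ-globin genes *HBG1* and *HBG2*. The sites are known to lie near one another in erythroid nuclei, and the comparison asked how the contacts between them looked with and without BCL11A.

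The windows of 2 kb used for the sites were chr11:5296075-5298075 for HS1, chr11:5300875-5302875 for HS2, chr11:5304975-5306975 for HS3, chr11:5308575-5310575 for HS4 and chr11:5311575-5313575 for HS5. Their centres lay 5.9, 10.7, 14.8, 18.4 and 21.4 kb upstream of the *HBE1* start site, and the rest of the LCR is called the sequence between the sites. The LCR is intergenic with respect to the canonical *HBE1* transcript and lies in introns of long alternative transcripts of *HBE1* and *HBG2*. The annotated exons in it are exon 2 of a long *HBE1* transcript (5303139 to 5303181, between HS2 and HS3) and the olfactory receptor pseudogene OR51AB1P (5312991 to 5313610, in HS5).

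Stretches of HS2, HS3 and HS4 around matches to TGAGTCA, the letters bound by NF-E2 and AP-1 factors, are shown because these were the most used sites. They were read from the plus strand of GRCh37, the same build as hg19, at chr11:5301963-5302019, chr11:5306121-5306167 and chr11:5308696-5308768. Capitals mark the matches, which read TGACTCA where they lie on the minus strand.
HS2 stretch: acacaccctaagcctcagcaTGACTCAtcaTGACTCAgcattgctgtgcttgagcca
HS3 stretch: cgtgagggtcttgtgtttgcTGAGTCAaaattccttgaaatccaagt
HS4 stretch: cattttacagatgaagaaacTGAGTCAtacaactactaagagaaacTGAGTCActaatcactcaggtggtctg
On both strands HS4 held 4 matches, HS2 held 2 and HS3 held 1, whereas HS1 and HS5 held 0. Of 65557 windows of the same length on chromosome 11, 0.0702% held at least 4 matches, 4.56% at least 2 and 27.0% at least 1. The GATA1 letters AGATAA occurred 5 times in HS5, 2 times each in HS1, HS2 and HS3 and 1 time in HS4, and 4.77% of the windows held at least 5. The other GATA1 letters searched, TGATAA, occurred 2 times in HS1 and in HS3 and 1 time each in HS2, HS4 and HS5. Of the windows 69.6% held at least 1 TGATAA. The KLF1 letters CACCC occurred 6 times in HS2, 5 in HS4, 4 in HS5 and 3 each in HS1 and HS3, and 23.6% of the windows held at least 6. The BCL11A letters TGACCA occurred 2 times in HS2 and in HS5, 1 time in HS1 and 0 times in HS3 and HS4, and 60.8% of the windows held at least 1. Such matches describe the letters and are not bound sites.

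A pair of 42-bp ends is also shown, because these ends were used by the most pairs within the LCR in the BCL11A KO list. Both lie in the HS3 window, at chr11:5305798-5305839 and chr11:5306940-5306981, outside any annotated exon. The capitals mark GATC, the cutting site of the restriction enzyme DpnII.
HS3 end at 14.64 kb: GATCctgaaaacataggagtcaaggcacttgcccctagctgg
HS3 end at 15.79 kb: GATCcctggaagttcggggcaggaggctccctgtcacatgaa
The enzyme is not given in the sources used here. Of 913 distinct ends of pairs within the LCR, 43 (4.71%) started or ended exactly at a GATC, as did 0.372% of all 42-bp stretches of the LCR. The LCR was therefore also described by the 35 fragments between its GATC sites, 28 to 2278 bp long with a median of 390 bp.

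HS3 was the most used site in both lists. The study used HS1 to HS5 of the LCR as capture baits. How far the use of a site follows from how well it was captured, in either list, was not tested. In WT 178 of the 278 pairs (64.0%, 95% Wilson interval 58.2 to 69.4) had an end in HS3, 107 (38.5%) in HS4, 81 (29.1%) in HS2, 50 (18.0%) in HS1 and 16 (5.76%) in HS5. In BCL11A KO 260 of the 336 pairs (77.4%, 72.6 to 81.5) had an end in HS3, 120 (35.7%) in HS4, 83 (24.7%) in HS2, 26 (7.74%, 5.34 to 11.1) in HS1 and 15 (4.46%) in HS5. The order HS3, HS4, HS2, HS1, HS5 was the same in both lists, and the intervals of the neighbours HS4 and HS2 overlapped in WT (33.0 to 44.3 and 24.1 to 34.7) but not in BCL11A KO (30.8 to 41.0 and 20.4 to 29.6). Those of HS1 and HS5 overlapped in BCL11A KO (5.34 to 11.1 and 2.72 to 7.23). Measuring the use per site was chosen after values had been seen, with adjustment over the 5 sites.

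The share of pairs with an end in HS3 was 13.4 percentage points higher in BCL11A KO (Fisher's exact test, adjusted p = 0.000816), and that of HS1 was 10.2 points lower (from 18.0% to 7.74%, exact adjusted p = 0.000816). For HS2, HS4 and HS5 the difference did not pass the threshold, at exact adjusted p of 0.390, 0.579 and 0.579. As a share of all distinct pairs of a list, HS3 rose from 6.00% to 11.3% (exact adjusted p = 5.64e-11), and HS4 from 3.61% to 5.19% (exact adjusted p = 0.0126), opposite in direction to its share of the pairs within the LCR. On that scale HS1 was at 1.69% and 1.13% (exact adjusted p = 0.129). With HS windows of 1 kb, HS3 had 158 and 204 pairs and the call was lost (exact adjusted p = 0.608), whereas that of HS1 remained with 31 and 15 pairs (exact adjusted p = 0.00979), and HS2, with 61 and 48 pairs, passed with a lower share in BCL11A KO (exact adjusted p = 0.0369). Without the end at 15.79 kb HS3 and HS1 both passed, with differences of 12.1 and -9.46 points (exact adjusted p = 0.00398 and 0.00373). Both also passed without pairs inside 1 GATC fragment (exact adjusted p = 0.00532 and 0.00157). The calls of HS3 and HS1 were both lost when each pair of 500-bp bins was counted once (exact adjusted p = 1 and 0.284) and when each pair of GATC fragments was (exact adjusted p = 0.536 for both). The share of HS1 was then still lower in BCL11A KO, by a difference of -11.3 points in bins (26 WT and 16 BCL11A KO pairs of bins) and -9.60 points in fragments, and that of HS3 higher by 4.01 and 10.0 points.

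**Figure D1:**
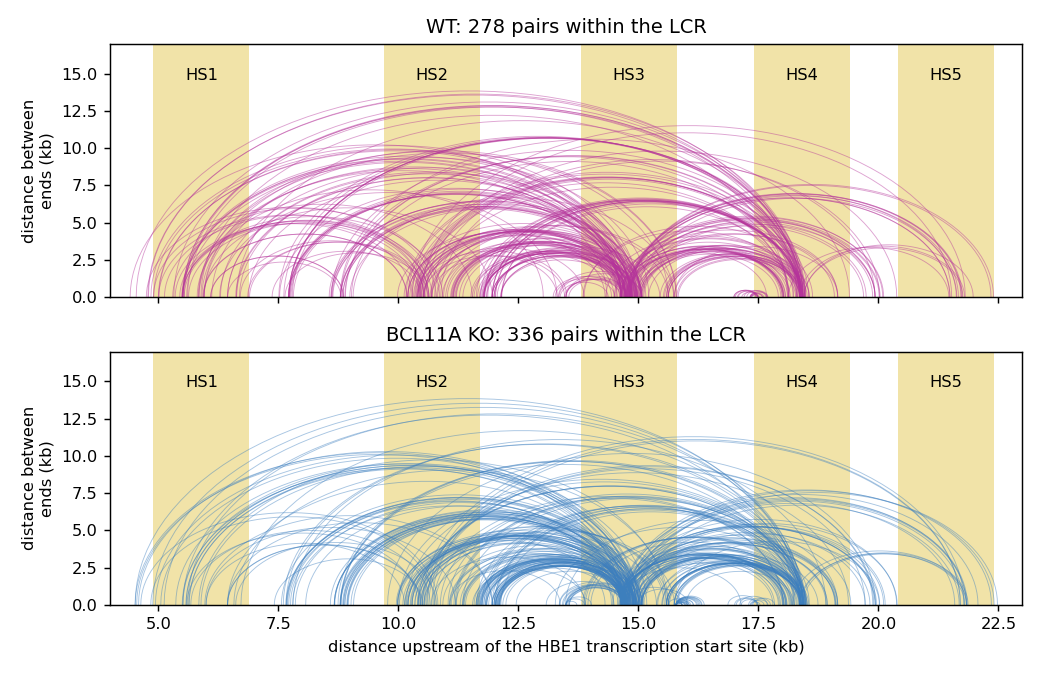
Each arc joins the midpoints of the 2 ends of 1 pair within the LCR, in WT (upper panel, 278 pairs) and BCL11A KO (lower panel, 336 pairs). The x axis is the distance upstream of the *HBE1* transcription start site in kb, the height of an arc is the distance between its ends in kb, and shaded bands are the HS windows. Arcs gather at HS3 in both lists, fewer start at HS1 in BCL11A KO, and a cluster of very short arcs lies at the far edge of HS3 in BCL11A KO.

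Most of the HS3 pairs came from a short stretch. The GATC fragment at chr11:5305798-5306267, 470 bp long and 23.5% of the HS3 window, held an end of 140 WT pairs (50.4% of the pairs within the LCR, interval 44.5 to 56.2) and of 192 BCL11A KO pairs (57.1%, 51.8 to 62.3). These were 78.7% and 73.8% of all pairs with an end in HS3. The TGAGTCA match of HS3 printed above lies in this fragment, and 115 WT and 135 BCL11A KO pairs had an end within 250 bp of it. The fragment was reached by many ends rather than 1: its pairs used 113 distinct ends in WT and 132 in BCL11A KO, and the most used of them, the end at 14.64 kb, took part in 17 and 23 pairs. Of the fragment's pairs, 35 in WT and 41 in BCL11A KO led to HS2, 22 and 39 to HS4, 16 and 10 to HS1, 10 and 8 to HS5, and 57 and 94 to the sequence between the sites.

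A fragment of HS4 (chr11:5309218-5310305, 1088 bp) came second with 78 WT pairs (28.1%) and 94 BCL11A KO pairs (28.0%), and it holds the TGAGTCA match of HS4 at 18.353 kb, which lies outside the stretch printed above, with 74 and 79 pairs within 250 bp. The other 3 matches of HS4, both of those printed among them, had 16 WT and 10 to 12 BCL11A KO pairs within 250 bp. The leading fragment of HS2 (chr11:5301602-5302405, 804 bp), with both matches of the HS2 stretch, had 49 pairs in WT (17.6%, interval 13.6 to 22.5) and 36 in BCL11A KO (10.7%, 7.84 to 14.5). Within 250 bp of each of these matches lay an end of 23 WT and 15 BCL11A KO pairs. The fragments of HS3 and HS4 also had many of the pairs that left the LCR: 347 of 917 such WT pairs (37.8%) and 384 of 888 BCL11A KO pairs (43.2%) had an end in the HS3 fragment, and 242 (26.4%) and 304 (34.2%) in the HS4 fragment. The leading HS2 fragment had 79 (8.62%) and 65 (7.32%).

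**Figure D2:**
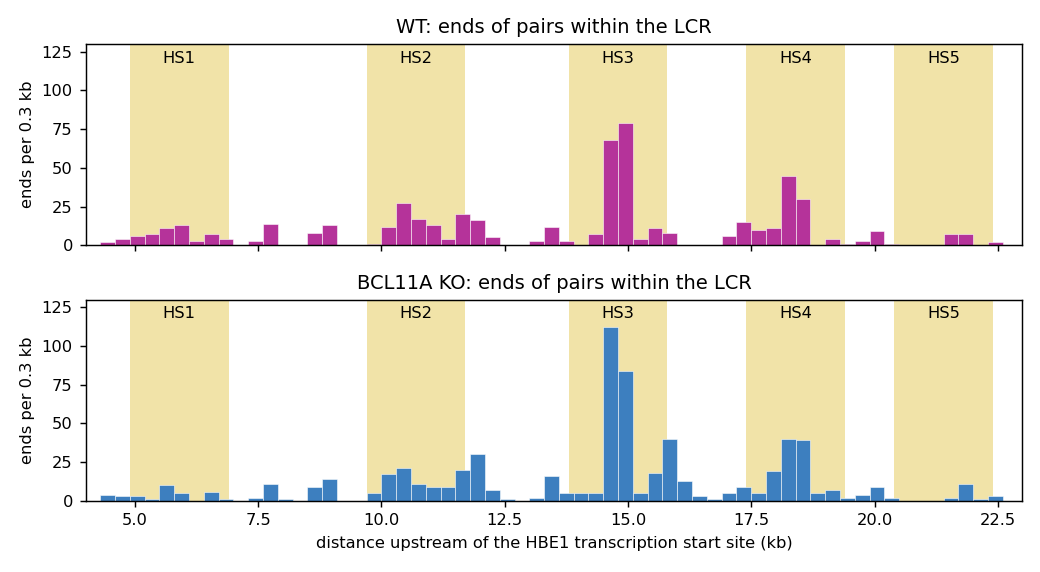
Bars give the number of pair ends in each stretch of 0.3 kb along the LCR, for WT (upper panel) and BCL11A KO (lower panel), against the distance upstream of the *HBE1* transcription start site in kb, with HS windows shaded. The tallest bars of both lists stand in HS3 at 14.5 and 14.8 kb (68 and 79 ends in WT, 112 and 84 in BCL11A KO), and the bar at 15.7 kb holds 8 ends in WT and 40 in BCL11A KO.

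The contacts were then sorted into 21 classes by the site, or sequence between the sites, at each end. Pairs between 2 different sites made up 154 of the 278 WT pairs (55.4%) and 171 of the 336 BCL11A KO pairs (50.9%), and pairs of 1 site with the sequence between the sites 124 (44.6%) and 162 (48.2%). In BCL11A KO 3 pairs touched no site, in WT 0, with an upper Wilson limit of 1.36%. No pair in either list had both ends in the same HS window, and the sources used here do not state whether such pairs were removed from the lists, so this 0 may not describe the contacts. With windows widened by 50 bp on each side there were 2 such pairs in each list, and with 300 bp 11 in WT and 29 in BCL11A KO.

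Between sites, the neighbours HS2 and HS3 and the neighbours HS3 and HS4 were joined most often. HS2 and HS3 were joined by 44 pairs in WT (15.8%, interval 12.0 to 20.6) and 51 in BCL11A KO (15.2%, 11.7 to 19.4), with an exact adjusted p of 1. HS3 and HS4 were joined by 40 pairs in WT (14.4%, 10.7 to 19.0) and 67 in BCL11A KO (19.9%, 16.0 to 24.5), at exact adjusted p = 0.365. The HS3 to HS4 difference passed only where the share was taken of all distinct pairs (exact adjusted p = 0.00109). HS4 and HS5, whose centres are closest of all at 3 kb apart, were joined by 4 pairs in each list. HS3 and HS5, at 6.6 kb, had 10 pairs in WT (3.60%, interval 1.97 to 6.49, against 0.561 to 3.64 for HS4 and HS5) and 8 in BCL11A KO.

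HS1 had fewer pairs in BCL11A KO with HS2, HS3, HS4 and the sequence between the sites, but no HS1 class passed the test by itself. HS1 and HS2 were joined by 15 WT (5.40%) and 7 BCL11A KO pairs (2.08%), and HS1 and HS3 by 22 (7.91%) and 13 (3.87%), both at exact adjusted p = 0.189. HS1 and HS4 were joined by 7 and 4 pairs, and HS1 met the sequence between the sites in 6 and 2. HS1 and HS5, the outermost sites, were joined by 0 of 278 and 0 of 336 pairs, with upper Wilson limits of 1.36% and 1.13%. HS5 had no pair with the sequence between the sites in either list, and HS2 and HS5 were joined by 2 pairs in WT and 3 in BCL11A KO.

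Of the 21 classes, 1 passed the test. HS3 with the sequence between the sites rose from 62 pairs in WT (22.3%, interval 17.8 to 27.6) to 121 in BCL11A KO (36.0%, 31.1 to 41.3), a ratio of 1.61 (exact adjusted p = 0.00563). The partners of HS3 lay between HS1 and HS2 in 20 WT and 29 BCL11A KO pairs, between HS2 and HS3 in 30 and 51, between HS4 and HS5 in 10 and 12, between HS3 and HS4 in 0 and 24, on the *HBE1* side of HS1 in 2 and 3, and beyond HS5 in 0 and 2. Of those 24 pairs, 21 were shorter than 1 kb. With pairs under 1 kb left out, 62 and 98 pairs remained and the class no longer passed (exact adjusted p = 0.244), and without the end at 15.79 kb there were 62 and 102 (exact adjusted p = 0.154). With ends assigned to a window only when they lay wholly inside it, which moves the end at 15.79 kb out of HS3, the class had 66 and 103 pairs (exact adjusted p = 0.301), and the class that passed was pairs touching no site, with 1 and 23 (exact adjusted p = 0.000199). HS4 with the sequence between the sites stood at 46 pairs in WT (16.5%) and 31 in BCL11A KO (9.23%), which did not pass (exact adjusted p = 0.0743).

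**Figure D3:**
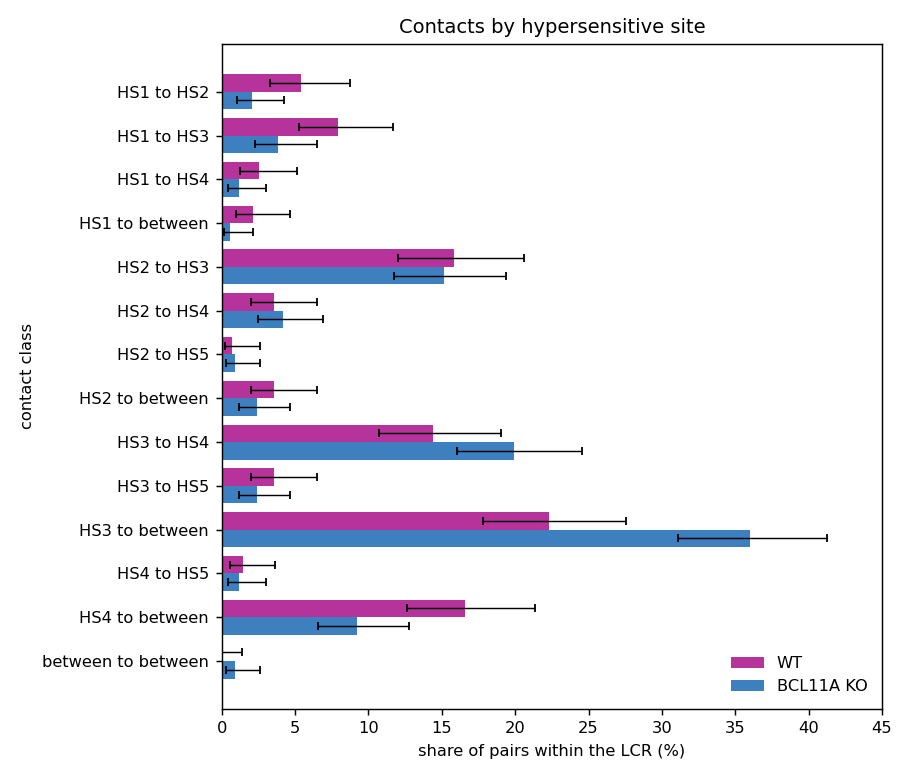
Bars give the share of pairs within the LCR, in percent, for each contact class with at least 1 pair, in WT (278 pairs) and BCL11A KO (336 pairs), and whiskers are 95% Wilson intervals, which cover counting error only. "Between" is the sequence between the sites. HS3 with the sequence between the sites stands at 22.3% in WT and 36.0% in BCL11A KO, and the intervals of the HS2 to HS3 class nearly coincide.

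The pairs under 1 kb sat at the borders of HS windows. Since no listed pair lay inside a window, a short pair at a site could only span its border, and this position carries the same limit. Under 1 kb there were 15 pairs in WT (5.40%, interval 3.30 to 8.71) and 36 in BCL11A KO (10.7%, 7.84 to 14.5). All 15 in WT spanned the HS4 border nearest *HBE1*, as did 10 in BCL11A KO. Another 23 in BCL11A KO lay at the HS3 border farthest from *HBE1*, and 3 at the HS3 border nearest it. All 15 WT pairs and 33 of the 36 BCL11A KO pairs had both ends in the same GATC fragment. For 15 and 32 of them this was the longest fragment of the LCR, chr11:5306940-5309217 (2278 bp), which runs from the last bases of the HS3 window into HS4. That fragment starts with the end at 15.79 kb shown above. In WT this end was in 1 pair within the LCR, 9.67 kb long. In BCL11A KO it was in 20 pairs, 19 of them between 110 and 585 bp long and inside that fragment. Its midpoint lies 14 bp inside the HS3 window and its last base 6 bp outside it.

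The median distance between midpoints was 4.51 kb in WT (quartiles 3.15 and 6.97 kb) and 3.87 kb in BCL11A KO (2.81 and 6.12 kb), and the longest pair spanned 13.8 kb in both. Of the 5 distance classes, 2 passed: under 1 kb rose from 5.40% to 10.7% (exact adjusted p = 0.0468) and 6 to 10 kb fell from 86 pairs (30.9%) to 72 (21.4%, exact adjusted p = 0.0465). From 1 to 3 kb the lists held 43 WT (15.5%) and 69 BCL11A KO pairs (20.5%), from 3 to 6 kb 112 (40.3%) and 142 (42.3%), and at 10 kb or more 22 (7.91%) and 17 (5.06%). These 3 classes did not pass. With distance taken from edge to edge, the differences under 1 kb and from 6 to 10 kb were 4.96 and -9.02 points. Neither class then passed (exact adjusted p = 0.0735 and 0.0569), nor did either in 500-bp bins (exact adjusted p = 0.514 and 0.746). Without the end at 15.79 kb, 15 and 17 pairs were under 1 kb and neither class passed (exact adjusted p = 1 and 0.160), while the medians were 4.51 and 4.15 kb. With pairs inside 1 GATC fragment left out the medians were 4.79 and 4.22 kb and neither class passed (exact adjusted p = 0.311 and 0.0954). The difference in the share from 6 to 10 kb was -9.51 percentage points over all pairs, -7.90 without the end at 15.79 kb and -8.94 without pairs inside 1 GATC fragment.

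**Figure D4:**
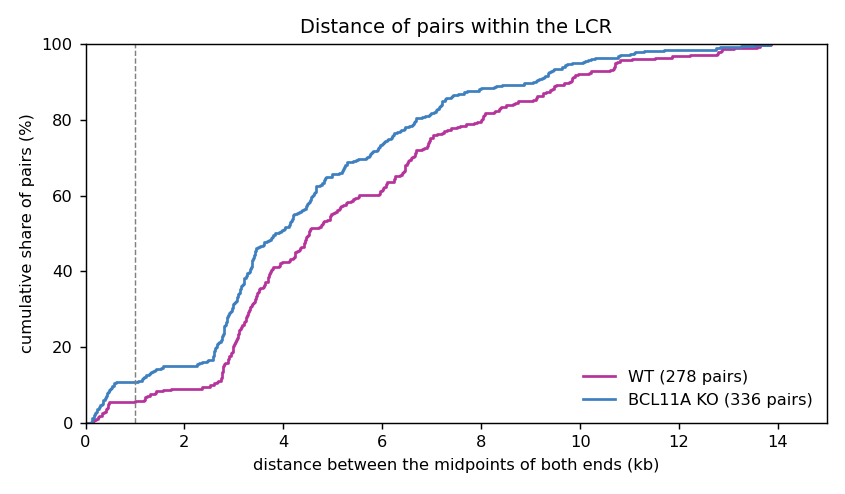
Curves give the cumulative share of pairs within the LCR, in percent, against the distance between the midpoints of both ends in kb, for WT (278 pairs) and BCL11A KO (336 pairs), and the dashed line marks 1 kb. The BCL11A KO curve reaches 10.7% at 1 kb and the WT curve 5.40%, and the medians are 3.87 and 4.51 kb.

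Pairs of 2-kb bins were tested over both whole lists, each against all distinct pairs of the list. Of the 16 pairs of bins within the LCR with at least 10 pairs, 4 passed, all higher in BCL11A KO, where 30.1% of all 93 tested pairs of bins passed (14 higher and 14 lower in BCL11A KO). The share within the LCR was thus close to the background. All 4 had a bin over most of HS3, chr11:5305475-5307475. With itself this bin had no WT pair and 22 BCL11A KO pairs (0.952% of the list). It reached the minimum of 10 pairs through BCL11A KO alone, and much of it lies in the HS3 window, where neither list holds a pair, so its call is no measure of a difference. Also, fewer than 10 such pairs, too few for a test, were left without those inside 1 GATC fragment or without those of the end at 15.79 kb. With chr11:5299475-5301475, which holds the part of HS2 nearest *HBE1* and the sequence before it, it had 18 and 37 pairs (0.607% and 1.60%, ratio 2.64, Fisher's exact test, adjusted p = 0.0038). With chr11:5309475-5311475, over much of HS4, it had 35 and 51 (1.18% and 2.21%, ratio 1.87, Fisher's exact test, adjusted p = 0.0169), and with chr11:5307475-5309475, which holds sequence between HS3 and HS4 and the part of HS4 nearest *HBE1*, 15 and 27 (0.506% and 1.17%, ratio 2.31, adjusted p = 0.0281). The last of these did not pass without pairs inside 1 GATC fragment or without the end at 15.79 kb, with 15 and 24 pairs in either case (exact adjusted p = 0.066 and 0.097). Against only the pairs that touch the LCR, the bin with itself was the 1 pair of bins that passed, with the same limit, and the other 3 stood at adjusted p of 0.0947, 0.365 and 0.298.

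Single ends were tested likewise where they had at least 20 pairs in both lists together. Of the 3 tested ends in the LCR, 2 passed, where 41.7% of all 12 tested ends passed. The HS3 end at 14.64 kb was in 79 pairs in WT (2.66% of the list), 62 of which left the LCR, and in 101 pairs in BCL11A KO (4.37%), 78 of which left it (exact adjusted p = 0.00301). Of only the pairs that touch the LCR these were 6.61% and 8.25%, which did not pass (exact adjusted p = 0.211 over 3 ends). Within the LCR its 17 WT pairs led 4 times to HS1, 5 times to HS2, 2 times to HS4 and 6 times to the sequence between the sites. Its 23 BCL11A KO pairs led 0 times to HS1, 4 times to HS2, 7 times to HS4, 2 times to HS5 and 10 times to the sequence between the sites, and these small counts were not tested. The end at 15.79 kb was in 4 pairs in WT (0.135%) and 22 in BCL11A KO (0.952%), or 0.335% and 1.80% of the pairs that touch the LCR. It reached the minimum of 20 pairs through BCL11A KO alone, and its call on either scale therefore rests on the list in which it is high. The third, at chr11:5306230-5306271, was in 14 and 22 pairs and did not pass (exact adjusted p = 0.0851). In both lists most ends were in 1 pair within the LCR, 91.7% of 480 distinct ends in WT and 87.3% of 527 in BCL11A KO. Other leading ends had at most 6 pairs within the LCR: an end between HS1 and HS2 (chr11:5298872-5298913) had 6 in WT and 1 in BCL11A KO, an end over that exon 2 (chr11:5303110-5303151) had 4 and 6, and a pair of HS3 ends meeting at a GATC (chr11:5306739-5306780 and chr11:5306777-5306818) had 2 and 6, and 5 and 6.

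Of the pairs within the LCR, 6 were identical in both lists (2.16% of WT, 1.79% of BCL11A KO), and 94 ends were used in both (19.6% of the 480 in WT, 17.8% of the 527 in BCL11A KO). As pairs of GATC fragments, 59 were shared (68.6% of the 86 in WT, 72.8% of the 81 in BCL11A KO), and as pairs of 500-bp bins 70 (71.4% of 98 and 66.7% of 105). Within the bait upstream of *HBD*, 363 pairs were identical (43.5% of WT, 48.7% of BCL11A KO), 53.7% of the WT and 69.2% of the BCL11A KO ends were shared, and so were 53.3% and 76.2% of the pairs of 500-bp bins. Within the *HBG* bait, with 26 and 44 pairs, 0 were identical, and 62.5% of the WT and 55.6% of the BCL11A KO pairs of 500-bp bins were shared.

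The score in the lists is the Bayes factor (BF) that the authors computed for an interaction, kept from 20 upward. The highest score in both lists was 150, shared by most pairs. It was therefore treated as a cap, which the study does not state, and the mean score was not used. At 150 stood 268 of the 278 WT pairs within the LCR (96.4%, interval 93.5 to 98.0) and 330 of the 336 BCL11A KO pairs (98.2%, 96.2 to 99.2), with an exact p of 0.205. Of all other pairs, 89.0% in WT and 86.6% in BCL11A KO stood at 150. The pairs below 150 came in groups with the same score. In WT these were the 4 pairs of HS4 with HS5 at 84, 3 pairs of HS1 with the sequence between the sites at 63, and 2 pairs of HS2 with HS5 and 1 of HS2 with the sequence between the sites at 123. In BCL11A KO these were the 4 pairs of HS4 with HS5 at 148 and both pairs of HS1 with the sequence between the sites at 84. HS4 with HS5 was thus below 150 in both lists, and no pair with HS3 was.

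As a share of all distinct pairs, pairs within the LCR rose from 9.37% in WT (interval 8.38 to 10.5) to 14.5% in BCL11A KO (13.2 to 16.0), a ratio of 1.55 (exact p = 7.79e-09). Counted once per pair of 500-bp bins the ratio was 1.44 (exact p = 0.00742). Counted once per pair of GATC fragments it was 1.32 and did not pass (exact p = 0.0721). The share of all distinct pairs depends on how many pairs the other baits gave. The unnamed list that held all pairs within the LCR was taken as that of the LCR bait. Its 1150 WT and 1216 BCL11A KO pairs were 38.8% and 52.6% of the distinct pairs. Of the pairs with at least 1 end in the LCR, 23.3% in WT and 27.5% in BCL11A KO stayed within it (ratio 1.18, exact p = 0.0195, the same counts as in the comparison with leaving pairs that follows and lost there without the end at 15.79 kb), and of the pairs of the list taken as that of the LCR bait 24.2% and 27.6% (ratio 1.14, exact p = 0.0605). The depth behind these counts is not known, since read numbers were not given, and each distinct pair was counted once.

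Pairs leaving the LCR numbered 917 in WT (95% Poisson interval 859 to 978) and 888 in BCL11A KO (831 to 948), a ratio of 0.968, whereas pairs within it had a ratio of 1.21 (278, interval 246 to 313, and 336, interval 301 to 374). The difference of these ratios passed (exact adjusted p = 0.0389 over 4 comparisons, Fisher's exact test), and it no longer passed without the end at 15.79 kb (exact adjusted p = 0.177) or without pairs inside 1 GATC fragment (exact adjusted p = 0.149). HS1 was low in BCL11A KO in both kinds of pair. It had an end in 89 leaving pairs in WT (9.71%) and 28 in BCL11A KO (3.15%, exact adjusted p = 4.58e-08). Among leaving pairs HS3 rose from 42.5% to 48.8% (exact adjusted p = 0.0136) and HS4 from 27.5% to 35.4% (exact adjusted p = 0.00079), HS5 fell from 3.49% to 1.80% (exact adjusted p = 0.0352), and HS2 stood at 11.2% and 9.57% (exact adjusted p = 0.281). For none of the 5 sites did the ratio within the LCR differ from that of its leaving pairs after adjustment. HS3, with 178 and 260 pairs within and 390 and 433 leaving, had the lowest value (exact adjusted p = 0.119). These comparisons per site were also chosen after values had been seen.

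**Figure D5:**
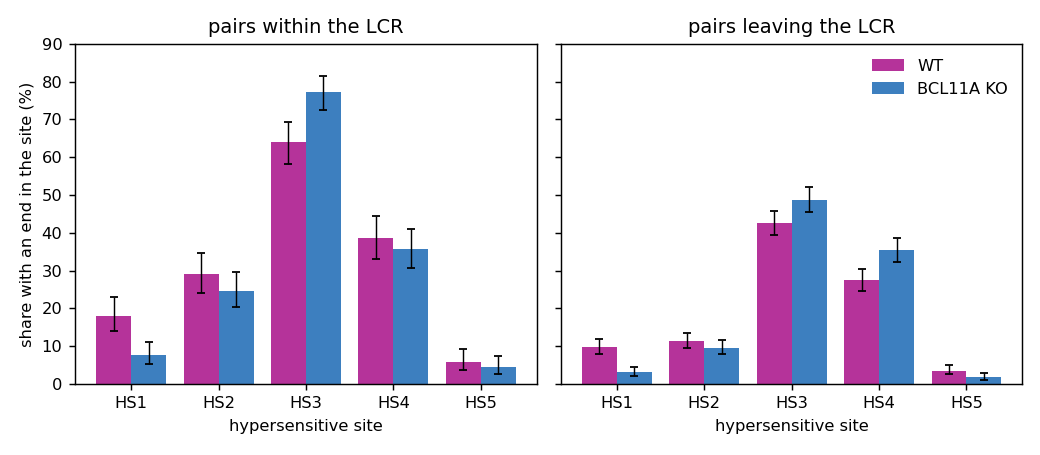
Bars give the share of pairs with an end in each hypersensitive site, in percent, for pairs within the LCR (left, 278 in WT and 336 in BCL11A KO) and pairs leaving it (right, 917 and 888), and whiskers are 95% Wilson intervals. HS1 is lower in BCL11A KO on both sides (18.0% and 7.74% within, 9.71% and 3.15% leaving), and HS3 is higher (64.0% and 77.4% within, 42.5% and 48.8% leaving).

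Set beside the other baits, pairs within the bait upstream of *HBD* numbered 835 (WT) and 745 (BCL11A KO), a ratio of 0.892, and differed from the ratio of 1.21 within the LCR (exact adjusted p = 0.00673). The size of this difference depended on short pairs: with pairs at least 1 kb apart the ratios were 0.203 upstream of *HBD* and 1.14 within the LCR (exact adjusted p = 1.21e-15), and in 500-bp bins the difference did not pass (exact adjusted p = 0.357). Within the *HBG* bait there were 26 and 44 pairs, and the difference from the LCR did not pass (exact adjusted p = 0.275). Within the *HBB* bait both lists held 0 pairs. Upstream of *HBD* 85.3% of WT pairs and 96.6% of BCL11A KO pairs were under 1 kb, against 5.40% and 10.7% within the LCR. This is given without a test, because the LCR is 18300 bp and the *HBD* bait 5500 bp long and because the lists hold no pair inside an HS window. Those within the *HBG* bait had medians of 4.23 and 4.26 kb, beside 4.51 and 3.87 kb in the LCR, and 0 of them were under 1 kb. Inside 1 GATC fragment lay 603 of the 835 WT pairs (72.2%) and 573 of the 745 BCL11A KO pairs (76.9%) upstream of *HBD*, against 15 (5.40%) and 33 (9.82%) within the LCR, with the same limits.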

How the data were processed

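CAPTURE-3C-seq libraries of WT and BCL11A KO HUDEP-2 cells were analysed from 1 merged list per genotype. The deposited lists give, per the file headers and values, the positions of 2 ends of 42 bp and a score. The authors computed the score, a Bayes factor, with their MAXIM code and kept interactions with a score of at least 20. The submitters' processing notes name Bowtie2 2.2.8, Picard and hg19. The restriction enzyme is not given in the sources used here, and the 6 samples of single replicates were not analysed here.

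Each list wrote pairs in both orientations and held 4 sorted lists without names (6390 lines in WT, 4844 in BCL11A KO). Mirrored and repeated lines were collapsed to 2966 and 2310 distinct pairs, of which 223 and 108 were in 2 lists. The highest score was taken where a pair had 2 scores (3 pairs within the LCR in each list). All pairs within the LCR came from 1 list per genotype, which was taken as the LCR list although it carries no bait name. An end belonged to a region by its midpoint. The LCR, the HS windows and the other baits had been read by eye from a drawing of the locus and placed by canonical transcription start sites (GENCODE on GRCh37). The pairs, regions and tests were chosen with earlier results of these data known.

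Shares had 95% Wilson intervals, counts exact Poisson intervals, and the lists were set against each other with Fisher's exact test (two-sided), with p-values adjusted after Benjamini and Hochberg over 21 contact classes, 5 distance classes, 5 sites, 4 comparisons with other pairs, 93 pairs of 2-kb bins with at least 10 pairs and 12 ends with at least 20 pairs. Where a limit is given for a count of 0, it is the upper end of the Wilson interval. Sites named are HS1 to HS5, the 3 most used ends of each list and the pairs of bins that passed. Alternatives were LCR list only, whole ends inside, highest score, at least 1 kb, 500-bp bins, GATC fragments, HS windows of 1 kb, other denominators, and leaving out the most used ends or pairs inside 1 GATC fragment. Those on GATC fragments, on the end at 15.79 kb, on site use, on distance classes at least 1 kb apart and on bins and single ends against pairs touching the LCR were added after the data had been seen. The tests of bin pairs, single ends and contact classes were first run on lists drawn with replacement from the WT pairs, as if pairs were independent. Only the test of bin pairs was also run with known changes, and the other tests were not run on drawn lists. Python 3.11.15, numpy 2.4.6, scipy 1.17.1 and matplotlib 3.10.9 were used.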

Additional observations from a re-analysis of the deposited data

How the results depend on the processing

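The ratio of the LCR share, 1.55, was 1.14 with the LCR list only (p = 0.0605, Fisher's exact test) and 1.32 with 1 pair per pair of GATC fragments (p = 0.0721, Fisher's exact test), and passed under the other 7 settings, 1 of which, the share of pairs touching the LCR, has the counts of the comparison with leaving pairs. The 1 contact class that passed became 2 as a share of all distinct pairs and 0 with HS windows of 1 kb, pairs at least 1 kb apart, 500-bp bins, GATC fragments, without the end at 15.79 kb and without pairs inside 1 GATC fragment, and with whole ends inside a window it was another class, pairs touching no site. The 2 distance classes became 1 at the highest score, and 0 from edge to edge, at least 1 kb apart, in 500-bp bins, without the end at 15.79 kb and without pairs inside 1 GATC fragment. Of the tested single ends in the LCR 2 of 3 passed, beside 41.7% over both whole lists. When overlapping ends were joined 5 of 18 passed, and against pairs touching the LCR 1 of 3. Of the tested pairs of bins in the LCR 4 of 16 passed, beside 30.1% over both whole lists. Against pairs touching the LCR 1 of 16 passed, and without the end at 15.79 kb 2 of 15. The end and the pair of bins that passed against pairs touching the LCR had reached the minimum through BCL11A KO alone. The ratio of the LCR to leaving pairs, 1.25, was 1.18 at least 1 kb apart and without the end at 15.79 kb, 1.13 in 500-bp bins and 1.19 without pairs inside 1 GATC fragment, and that of the LCR to the *HBD* bait, 1.35, was 1.77 in 500-bp bins, all without passing. At least 1 kb apart the ratio of the LCR to the *HBD* bait was 5.61 and passed (adjusted p = 1.21e-15, Fisher's exact test). The causes were not tested. Counting bins or fragments leaves fewer pairs to compare.

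In 27 cases a difference (BCL11A KO minus WT, in percentage points) turned its sign. HS2 with HS3 became 0.72 of all distinct pairs, 0.48 of pairs touching the LCR, 0.27 at least 1 kb apart, 0.204 in 500-bp bins, 0.0734 without the end at 14.64 kb, 0.255 without the end at 15.79 kb, 0.102 without pairs inside 1 GATC fragment and 4.28 in GATC fragments. HS2 with HS4 became -0.137 with HS windows of 1 kb, and both HS2 with the sequence between the sites and HS3 with HS5 became 0.00917 of all distinct pairs. In 500-bp bins HS3 with HS4 became -3.67, HS3 with HS5 0.748, HS4 with the sequence between the sites 2.04, pairs of 3 to 6 kb -0.748, pairs of 10 kb or more 0.204 and use of HS4 0.476. In GATC fragments HS3 with HS4 became -0.654 and HS3 with HS5 0.116. Use of HS2 became 0.0028 of pairs touching the LCR and 0.862 of all distinct pairs, that of HS4 0.85, 1.59 (adjusted p = 0.0126, Fisher's exact test), 1.69 at least 1 kb apart and 1.32 without pairs inside 1 GATC fragment, and that of HS5 0.11 of all distinct pairs. Pairs under 1 kb became -0.0354 without the end at 15.79 kb. Apart from the use of HS4 as a share of all distinct pairs, none of these 27 passed. No paired analysis was possible because the files used here hold 1 merged list per genotype and no values per numbered replicate.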
